A study of Populus qamdoensis and Populus schneideri with 18 samples.

Results

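A small set of genes was read in the leaves of P. qamdoensis and almost never in those of P. schneideri. The genes were selected on their FPKM, the fragments sequenced from a gene, corrected for its length and for the total mapped in that library. It had to be at least 1 in 8 P. qamdoensis libraries and below 0.1 in all 9 P. schneideri libraries, and P. qamdoensis BF replicate 1 was not used. Of the 39194 genes of the deposited table, 59 met the rule, or 0.151%. Since the species contrast chose them, their levels in the 2 species are described here without a test.

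The 18 leaf libraries came from both poplars, with 3 libraries per film and species. The films were a blue film (BF), a green film (GF) and a translucent colorless film (WF). For P. qamdoensis, the methods describe a greenhouse treatment of nursery cuttings that trace back to a natural forest, with leaves taken from 3 plants per film. For P. schneideri the labels give only a blue, green or white light quality, from which the film was inferred. The sources used here do not say which genotype or clone each library came from, so species, plant origin and clone cannot be told apart. Gene sums were alike, from 541755 to 605718 FPKM per library, and the number of fragments behind a value is unknown. Of the 6 porphyrin and chlorophyll genes of the study's pathway table, 5 were at 1 FPKM or more in every library of each species. The exception was chlorophyllase-1. The study listed these genes for film differences in P. qamdoensis, so for that species they are no independent check of the labelled tissue.

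Reads of both poplars were compared to the genome of another species, P. yunnanensis. Closely related trees differ in which gene copies they carry, in how far an allele has drifted from a shared reference, and in whether a gene is transcribed in a given organ. Any of these can leave a gene with reads in one species and none in the other, and expression values alone do not separate them. Members fall into 2 kinds of identifier. Numbered genes, such as Pyun13G009350, carry a chromosome and an order number of the P. yunnanensis annotation, and new genes, such as Populus_yunnanensis_newGene_1627, carry a running number only.

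One library stood apart and touches every film result. In P. qamdoensis BF replicate 1, 313 genes were below 0.1 FPKM although they were at 1 or more in the other 8 libraries of the species, against 0 to 5 such genes in each of the other 17 libraries. The opposite pattern, present here and below 0.1 in the other 8, held for 140 genes, against at most 7 elsewhere. Its median Pearson correlation with the other P. qamdoensis libraries, across genes on the log2(FPKM + 1) scale, was 0.929, while the other 8 had medians of 0.971 to 0.990. The film results are therefore given with and without it. Whether this plant or library differed in genotype was not tested.

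Most members were genes of modest level. Their mean over the 8 libraries ran from 1.37 to 44.9 FPKM with a median of 4.23, against a median of 11.0 for all 19784 genes at 1 FPKM or more in the same libraries. Only 10 of the 59 averaged 10 FPKM or more (16.9%), a level that 53.3% of those 19784 genes reached. A further 15 averaged 5 to below 10 FPKM, 27 averaged 2 to below 5, and 7 lay below 2. In the whole table the 8 libraries all exceeded the 9 of P. schneideri for 1296 genes, which is 3.31%. This is the contrast that chose the members, so they are among these genes by the rule.

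The highest member was Pyun13G009350. It had 79.4 and 35.2 FPKM in BF replicates 2 and 3, 40.7, 55.1 and 32.5 FPKM in GF, and 44.4, 30.7 and 41.4 FPKM in WF, a mean of 44.9 ± 15.9 (SD, n = 8), against 0 in all 9 P. schneideri libraries. It lies on chromosome 13, as does the next but one, Pyun13G001620, at 18.4 ± 2.98 FPKM over the 8 libraries. Second was Pyun03G002270 on chromosome 3, with 24.2 ± 3.88 FPKM (SD, n = 8). These and Pyun09G015040, at 15.1 ± 2.78 FPKM, were listed at 0 in every P. schneideri library. No annotation for them was used here, so they are given by identifier only.

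The next 6 by level included 3 new genes. Populus_yunnanensis_newGene_1627 averaged 14.4 ± 2.36 FPKM, Populus_yunnanensis_newGene_1079 averaged 13.5 ± 1.06 and Populus_yunnanensis_newGene_1704 averaged 10.7 ± 0.981 (SD, n = 8 each). Pyun14G002660 had 12.5 ± 1.10 FPKM and stayed between 11.0 and 14.3 in the 8 libraries. Its SD was 8.76% of its mean, among the lowest such shares of the members. Pyun04G004500 averaged 11.5 ± 5.05 FPKM and Pyun07G005320 averaged 11.0 ± 2.20. At the low end stood 3 new genes, Populus_yunnanensis_newGene_1728 at 1.37 ± 0.295 FPKM, Populus_yunnanensis_newGene_343 at 1.53 ± 0.231 and Populus_yunnanensis_newGene_2409 at 1.62 ± 0.249.

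In P. schneideri, 52 of the 59 members were listed at 0 in all 9 libraries. The other 7 had a few low values, 16 of 531 member values in all, between 0.0170 and 0.0961 FPKM. Pyun06G008970 was above 0 in 5 P. schneideri libraries and Pyun01G036890 in 4, and the remaining 5 in 1 or 2 each. All 24 new genes were at 0 throughout.

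**Figure D1:**
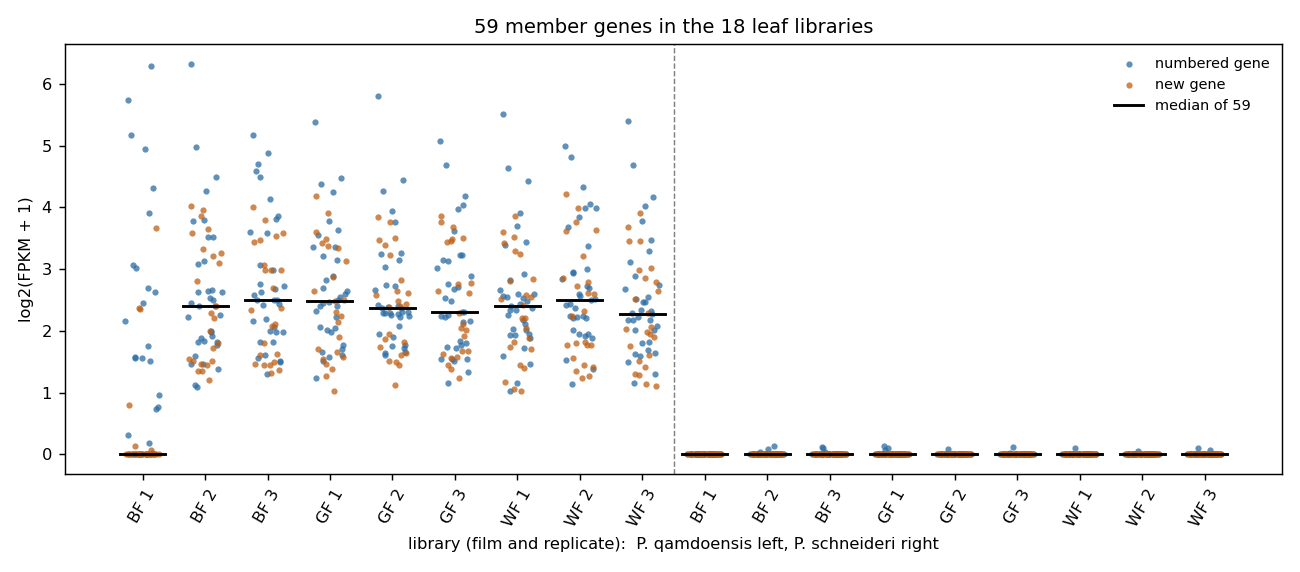
FPKM of the 59 members in each library, as log2(FPKM + 1), with the 9 P. qamdoensis libraries left and the 9 P. schneideri libraries right. Each point is a gene (blue numbered, orange new) and the bar is the median of the 59, which lay between 3.81 and 4.67 FPKM in the 8 libraries that chose the genes and at 0 in P. qamdoensis BF replicate 1 and in every P. schneideri library.

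Around the limits of the rule the values were continuous. Just inside the minimum were Populus_yunnanensis_newGene_1728 and Pyun13G000540, each with a lowest value of 1.03 FPKM, and just outside were Pyun15G006530 at 0.957 and Pyun01G044410 at 0.937. Just inside the ceiling were Pyun13G000540 and Pyun03G004130, with highest P. schneideri values of 0.0961 and 0.0954 FPKM, and just outside were Pyun16G012660 at 0.108 and Pyun10G010700 at 0.116.

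New genes were frequent among the members. They made up 24 of 59 (40.7%), against 4.16% of all genes in the table and 1.89% of the genes at 1 FPKM or more in the same 8 libraries. The same was seen in the mirrored set, the 55 genes at 1 FPKM or more in all 9 P. schneideri libraries and below 0.1 in the 8 of P. qamdoensis, where 22 were new (40.0%). New members had a median level of 3.89 FPKM and numbered members one of 4.45, so the kinds of identifier overlapped in level, although both members above 20 FPKM were numbered.

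The spread between the 8 libraries differed widely from member to member. The coefficient of variation had a median of 22.6% and ran from 7.84% to 125%, against a median of 16.3% for the 17340 other genes of the same level range. It was below 20% for 23 members and above 50% for 5. The 5 were Pyun04G009930, Pyun14G007110, Populus_yunnanensis_newGene_1597, Pyun06G024700 and Pyun16G009700, and the first 2 of them are the members with the largest film differences.

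P. qamdoensis BF replicate 1 gave a reading that the rule had not used. In it, 20 of the 59 members were at 1 FPKM or more, 6 lay between 0.1 and 1, and 33 were below 0.1 (55.9%), 30 of these at 0. Among 16461 genes of the same level range that were at 1 FPKM or more in all other 17 libraries, 173 were below 0.1 in this library (1.05%). Below 0.1 were 20 of the 24 new members and 13 of the 35 numbered members. No other library gave such a reading. When each of the other 8 P. qamdoensis libraries was left out in its place, 20 to 23 genes met the rule. None of them was below 0.1 FPKM in the library left out. Those rules held BF replicate 1 to 1 FPKM or more, so they cover a smaller set than the 59 and the counts are not directly comparable. With BF replicate 1 still spared and 1 more P. qamdoensis library left out, 59 to 67 genes met the rule. Of these, 1 was below 0.1 FPKM in WF replicate 1 and 1 in WF replicate 2 when that library was left out, and 0 in the others.

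The members that were present in BF replicate 1 were read there at levels of their own. Their ratio to the mean of the other 8 libraries had a median of 0.978 and ran from 0.302 to 7.04. Pyun07G005320 had 77.6 FPKM in BF replicate 1, against 8.63 to 15.3 in the other 8 libraries. Pyun04G004500 had 35.1 FPKM against 7.64 to 23.1, and Pyun15G009710 had 5.20 against 1.82 to 2.70. In all, 6 members lay above all 8 other libraries, 8 lay within their range and 45 lay below it.

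Other strong members were absent or low in the same library. Populus_yunnanensis_newGene_1627 and Pyun14G002660 were both at 0 in BF replicate 1, against at least 11.1 and 11.0 FPKM in each of the other 8. Pyun03G002270 had 7.35 FPKM against 18.3 to 30.6, and Populus_yunnanensis_newGene_1079 had 4.08 against 11.8 to 14.9. Of the 10 highest members, 7 were at 1 FPKM or more in BF replicate 1. The mirrored genes were not simply present there either: 11 of the 55 were at 1 FPKM or more, 8 lay between and 36 were below 0.1. In this library, then, neither set followed its species pattern throughout.

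**Figure D2:**
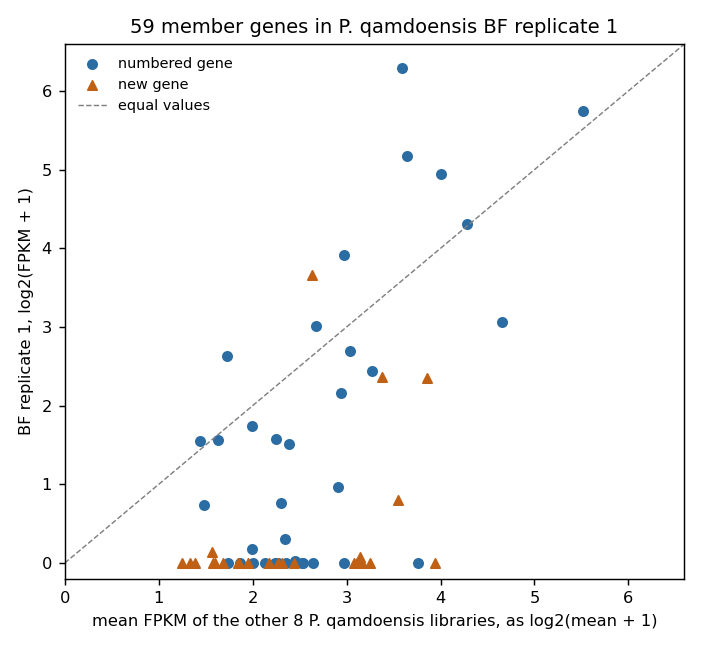
The 59 members in P. qamdoensis BF replicate 1 (vertical axis, log2(FPKM + 1)) against the mean of the other 8 P. qamdoensis libraries (horizontal axis, same scale), with circles for numbered and triangles for new genes and a dashed line of equal values. 33 members lie below 0.1 FPKM at the bottom, 20 of them new, and Pyun07G005320 stands highest at 77.6 FPKM.

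Film response was the next question, since the study was set up to compare light environments. The rule did not compare films, but it asked for 1 FPKM or more in every GF and WF library and in BF replicates 2 and 3, so a member could be near 0 in BF replicate 1 alone. In the contrasts with BF, the fits of 9 libraries therefore carry the rule's sparing of that library. All GF and WF libraries, and the BF libraries left in the fits without BF replicate 1, were held at 1 FPKM or more. There the rule itself limited how far a member could fall under a film. In limma fits of log2(FPKM + 1), where a call needed both a 1.5-fold change and an adjusted p below 0.01, no member was called in BF vs WF, GF vs WF or BF vs GF. The background was as low, at 0.00414%, 0% and 0% of 24147 genes tested. At an unadjusted limma p below 0.05, 5 members passed in BF vs WF, against 17% of all genes tested, 1 passed in GF vs WF (1.95%) and 6 passed in BF vs GF (19%). In the F test over the 3 films no member passed the adjusted threshold, as for all genes (0%), and 4 passed an unadjusted p below 0.05 (14.5%). Both contrasts with BF share its libraries. The fits treat plants of a film as replicates, so the p-values measure the spread between these plants.

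Without BF replicate 1, which leaves 2 BF libraries, limma again called no member in any contrast, against 0.00417%, 0% and 0% of 23978 genes. At an unadjusted p below 0.05, 7 members passed in BF vs WF (15.1% of all genes), 3 in GF vs WF (4.4%) and 9 in BF vs GF (16.4%). With 59 members tested, these counts are near or under the shares of all genes.

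BF replicate 1 decided the median of the members. With all 9 libraries the median log2 fold change of the 59 members was -0.51 in BF vs WF, 0.05 in GF vs WF and -0.56 in BF vs GF, beside medians of -0.05, 0.01 and -0.05 over all genes tested. Without it the medians of the members were -0.01, 0.05 and -0.04, and those of all genes were -0.01, 0.01 and -0.01. With 9 libraries 48 of the 59 members were lower in BF than in WF, and without BF replicate 1 this held for 30.

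**Figure D3:**
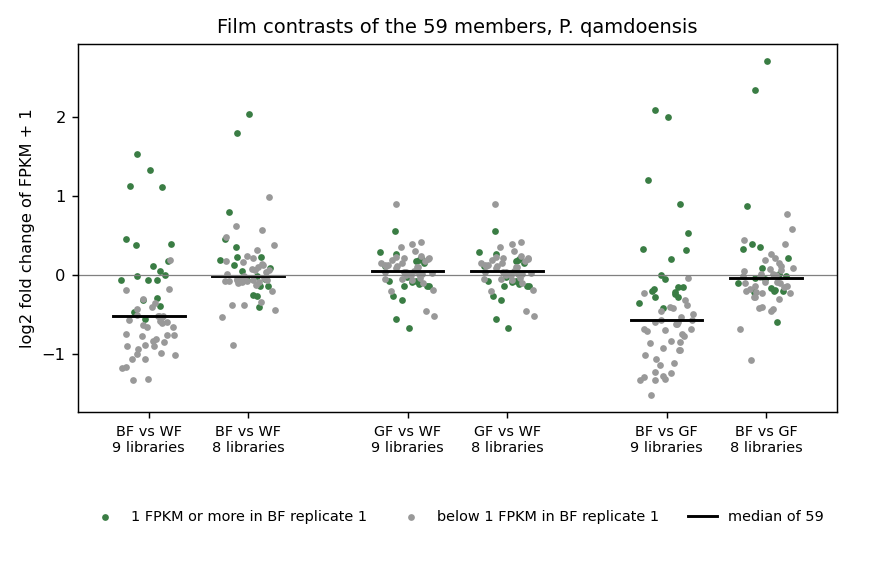
Log2 fold change of the 59 members in each film contrast, from the fit of 9 P. qamdoensis libraries and from that of 8 without BF replicate 1. Points are genes, green where BF replicate 1 had 1 FPKM or more and grey otherwise, and bars are medians, which lie at -0.51 and -0.56 in the contrasts with BF when it is included and at -0.01 and -0.04 when it is not.

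In the 8 libraries, all held at 1 FPKM or more by the rule, most members differed little between films. Over the 8 libraries, 44 of the 59 had film means within 1.5-fold of each other (74.6%, against 85.1% of other genes of that level range), and the median span between the highest and lowest film mean was 1.24-fold. A lack of overlap between the libraries of 2 films was common among all genes. With 9 libraries it held for 4664 of 24147 genes in BF vs WF, 3052 in GF vs WF and 5531 in BF vs GF. Among the 59 members the counts were 4, 9 and 9. The 5 members with film means more than 2-fold apart are among those described next.

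Pyun14G007110, which the study lists under amino sugar and nucleotide sugar metabolism, had the largest log2 fold change of the members in both contrasts with BF when BF replicate 1 was left out. This pathway supplies the activated sugars from which cell walls and glycans are built. The gene had 4.45, 18.2 and 28.6 FPKM in BF, 2.95, 2.74 and 2.31 FPKM in GF, and 5.06, 4.93 and 4.50 FPKM in WF. BF replicates 2 and 3 stood far above all GF and WF libraries, GF lay below WF without overlap, and BF replicate 1 was at the WF level. With 9 libraries the BF vs GF log2 fold change was 2.00 (SE 0.509, limma adjusted p = 0.146) and the BF vs WF one was 1.32 (SE 0.509, adjusted p = 0.254). Without BF replicate 1 they were 2.70 (SE 0.192, adjusted p = 0.0103) and 2.03 (SE 0.192, adjusted p = 0.0165), above the 0.01 threshold. Without BF replicate 3 they were 1.48 and 0.81 (limma adjusted p = 0.0844 and 0.262). In P. schneideri it was above 0 in a single library, at 0.0604 FPKM.

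With 9 libraries Pyun04G009930 had the largest values in both of these contrasts. It is a beta-glucosidase by its match to P. tomentosa, and the study lists it under starch and sucrose, phenylpropanoid and cyanoamino acid metabolism. The study drew up its lists on these libraries, so the listing of this gene and of Pyun14G007110 is not independent evidence. Enzymes of this family remove glucose from cell-wall fragments and from stored glucosides such as those of phenolics and cyanogenic compounds. It had 7.07, 7.43 and 21.4 FPKM in BF, 1.86, 2.13 and 1.23 FPKM in GF, and 4.06, 3.04 and 2.07 FPKM in WF. All 3 BF libraries lay above all GF and WF libraries, BF replicate 1 included. The log2 fold change was 2.08 in BF vs GF (SE 0.386, limma adjusted p = 0.0955) and 1.53 in BF vs WF (SE 0.386, adjusted p = 0.175). Without BF replicate 1 the values were 2.34 (adjusted p = 0.0674) and 1.79 (adjusted p = 0.143).

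Pyun04G004500 was also higher in BF. It had 35.1, 12.7 and 23.1 FPKM in BF, 10.7, 8.50 and 7.90 FPKM in GF, and 9.43, 11.9 and 7.64 FPKM in WF, with no overlap between BF and either other film. The limma log2 fold change was 1.20 in BF vs GF (SE 0.321, adjusted p = 0.153) and 1.12 in BF vs WF (SE 0.321, adjusted p = 0.194), and without BF replicate 1 they were 0.87 and 0.79. Populus_yunnanensis_newGene_1597 had 0, 2.47 and 6.95 FPKM in BF, 1.99, 2.10 and 2.17 FPKM in GF, and 2.26, 1.67 and 1.15 FPKM in WF. Its BF vs WF log2 fold change was 0.19 with 9 libraries and 0.99 without BF replicate 1 (limma adjusted p = 0.236), and a single plant, BF replicate 3, carried it: without that library the value was -0.51.

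In the opposite direction stood Pyun06G014620. It had 0, 1.17 and 1.95 FPKM in BF, 4.29, 3.89 and 4.78 FPKM in GF, and 3.76, 3.72 and 3.50 FPKM in WF. The BF libraries all lay below the GF and WF libraries, and GF lay above WF. The log2 fold change was -1.51 in BF vs GF (SE 0.342, limma adjusted p = 0.130) and -1.33 in BF vs WF (SE 0.342, adjusted p = 0.179), and without BF replicate 1 it was -1.07 (adjusted p = 0.0624) and -0.88 (adjusted p = 0.127). Populus_yunnanensis_newGene_2956 had 0, 1.92 and 4.06 FPKM in BF, 5.24, 4.95 and 5.22 FPKM in GF, and 4.71, 6.23 and 3.10 FPKM in WF, where BF overlapped WF.

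Between GF and WF the differences were small. The largest belonged to Populus_yunnanensis_newGene_2968, with 9.75, 9.50 and 9.79 FPKM in GF and 6.03, 3.72 and 4.73 FPKM in WF. Its 3 GF plants were nearly equal and above all 3 WF plants, at a log2 fold change of 0.89 (limma adjusted p = 1 with 9 libraries and 0.596 without BF replicate 1). With the GC class of the library (high or low GC content, from the study's library summary) as a term it was 0.06. The largest positive value of a member was then 0.57. This term left the members' BF vs WF median at -0.51 but moved the GF vs WF one from 0.05 to -0.16. The class is thus unevenly spread between GF and WF, and the 2 are not fully separate. Pyun13G000540 had 2.14, 2.04 and 2.35 FPKM in GF and 1.03, 1.20 and 1.22 FPKM in WF, a log2 fold change of 0.56, also without overlap and with a limma adjusted p of 1. Populus_yunnanensis_newGene_3412 followed at 0.42, with overlapping films. On the other side of 0 were Pyun14G007110 at -0.67, Pyun04G009930 at -0.55 and Pyun06G024700 at -0.52, the last set by 1 plant with 14.9 FPKM in WF against 5.04 and 5.70 in the other WF plants (log2 fold change -0.08 without it). Pyun03G004130, at 5.35 and 4.63 FPKM in BF replicates 2 and 3 and 7.82, 7.90 and 8.33 FPKM in GF, had 14.1 FPKM in BF replicate 1, so that its BF vs GF log2 fold change was -0.15 with this library and -0.59 without it.

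**Figure D4:**
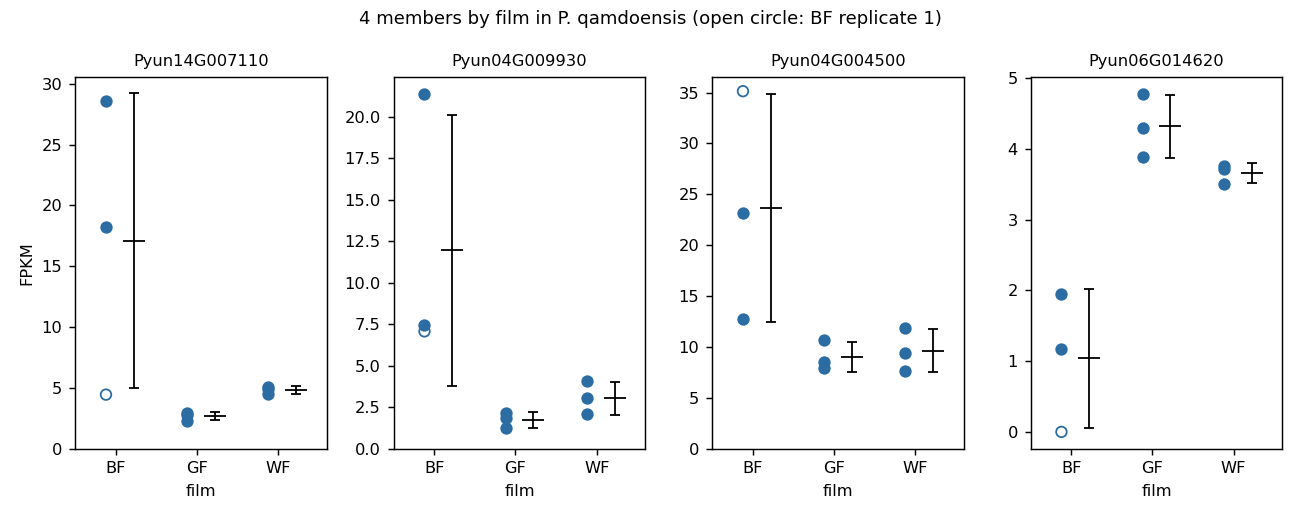
FPKM of 4 members in the 3 films of P. qamdoensis. Each circle is a library, the open one is BF replicate 1, and the bar and whiskers give the mean and SD of 3 libraries. Pyun04G009930 and Pyun04G004500 are higher in all 3 BF libraries, Pyun14G007110 in 2 of 3, and Pyun06G014620 is lower in all 3.

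Other genes of the enzyme family of Pyun04G009930 were then read, a choice made after the values were seen. The pathway table of the study annotates genes that it found to differ between films in the P. qamdoensis libraries. It holds 8 genes annotated as beta-glucosidase or glycoside hydrolase. Besides Pyun04G009930, 6 of the other 7 had a mean below 0.1 FPKM in P. schneideri, and only Pyun01G039570 was at 1 FPKM or more in all 9 of its libraries. The highest, Pyun19G002470, averaged 24.7 FPKM over the 8 P. qamdoensis libraries against 0.0560 FPKM in P. schneideri. Pyun01G021350, Pyun01G021550 and Pyun01G021560 averaged 5.26, 7.53 and 5.62 FPKM in P. qamdoensis against 0, 0.0424 and 0.0742 FPKM in P. schneideri. They missed the rule because a P. schneideri library exceeded the ceiling or, for Pyun01G021350, because a GF library had 0.699 FPKM. Pyun01G021570 was low in both species, at 0.184 FPKM in P. qamdoensis against 0.00233 FPKM in P. schneideri.

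The same 6 relatives were all present in BF replicate 1, at 1.06 to 31.6 FPKM, while Pyun01G039570 had 0.0487 FPKM there. Pyun19G002470 had 31.6, 37.7 and 86.2 FPKM in BF, 10.6, 10.2 and 6.45 FPKM in GF, and 20.8, 15.9 and 9.43 FPKM in WF, the order of films seen for Pyun04G009930. The listed genes were picked for film differences in these libraries, so a shared order is not independent support. Pyun01G039570 went the other way, with 0.0487, 1.21 and 6.28 FPKM in BF and 16.5, 6.55 and 14.6 FPKM in GF. Near-identical copies of such a family can share reads, and the sources used here do not say how the authors' counting divided them, so the values of single copies are uncertain.

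By gene number, the 35 numbered members were scattered. They lay on 14 of the 19 chromosomes, with at most 4 on a chromosome (1 and 13), and none lay on chromosomes 2, 5, 11, 12 and 18, which hold 24.5% of the numbered genes. No member was next to another in the gene order, nor within 5 places of one. The closest pair, Pyun01G036820 and Pyun01G036890, stood 7 places apart, and the next closest, Pyun13G000540 and Pyun13G001620, stood 108 places apart. No gene of the mirrored set was within 5 places of a member. New genes carry no position and are left out of these counts.

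Genes next to the members were also read for their levels. Of the 70 next neighbours, 28 were at 1 FPKM or more in all 9 P. schneideri libraries (40.0%), against 58.0% of the neighbours of other numbered genes expressed in the 8 P. qamdoensis libraries. In P. qamdoensis itself 34 of the 70 were at 1 FPKM or more in the 8 libraries (48.6%, against 58.2%). For 8 members both neighbours were at 1 FPKM or more in all P. schneideri libraries, for 12 a single one was, and for 15 neither.

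A few members had neighbours that shared their pattern without meeting the rule. Within 3 places of a member lay 210 genes, of which 8 (3.81%) averaged 1 FPKM or more in the 8 P. qamdoensis libraries and below 0.1 FPKM in P. schneideri. The share was 0.275% among genes in the same places around other expressed genes. Pyun04G004490, next to Pyun04G004500, averaged 21.8 FPKM in P. qamdoensis against 0.0861 FPKM in P. schneideri. Like its neighbour it was highest in BF replicate 1, at 66.3 FPKM. Around the close pair on chromosome 1, Pyun01G036850 averaged 1.94 FPKM in P. qamdoensis against 0.00482 in P. schneideri, and Pyun01G036900 averaged 8.16 against 0.0831.

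Other such neighbours stood on chromosomes 3, 4 and 19. Pyun19G005420 and its neighbour Pyun19G005430 averaged 2.43 and 3.03 FPKM in P. qamdoensis against 0 for both in P. schneideri, and both were at 0 in BF replicate 1. Their flanking genes were read in both species: Pyun19G005400 averaged 20.1 FPKM in P. qamdoensis and 20.2 FPKM in P. schneideri. The remaining ones were Pyun03G002240 near Pyun03G002270, the beta-glucosidase 12 gene Pyun04G009900 near Pyun04G009930, and Pyun19G011760 and Pyun19G011800 near Pyun19G011790. Whether these neighbours are single loci split into several gene models was not tested.

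**Figure D5:**
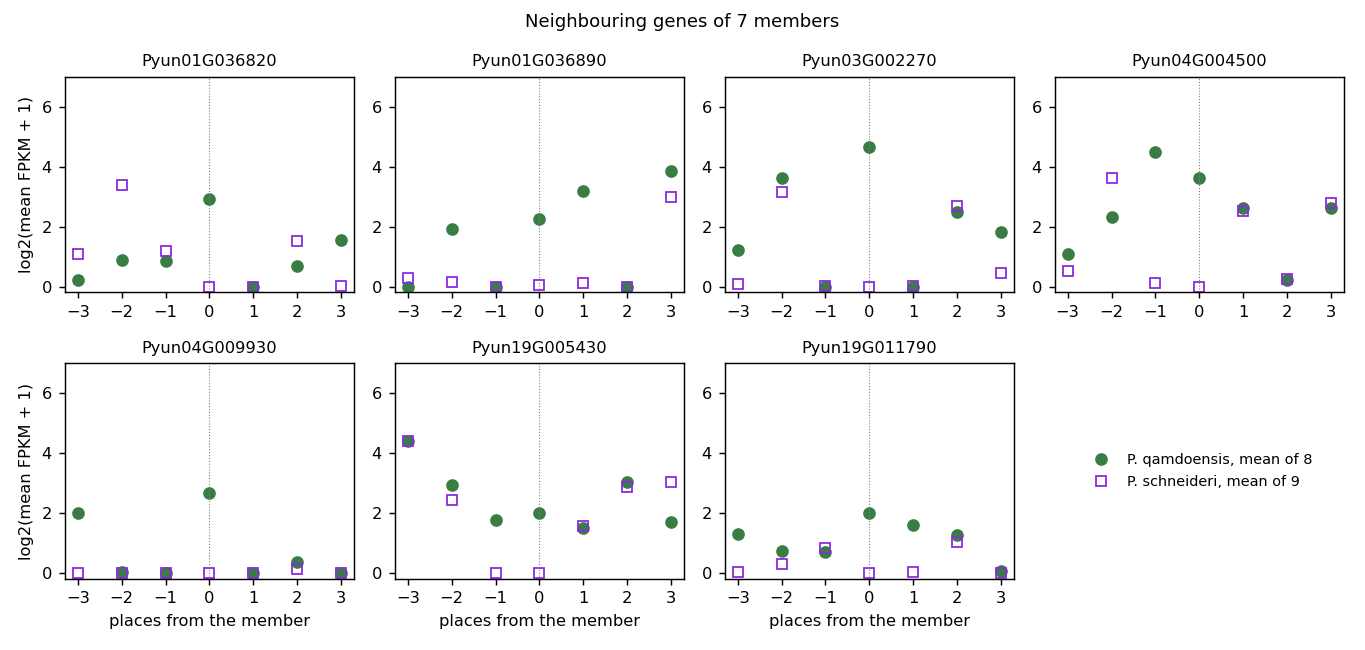
Mean FPKM, as log2(mean + 1), of the genes up to 3 places before and after 7 members, those with a neighbour that shares their pattern (chosen after the values were seen). Filled circles are P. qamdoensis (8 libraries) and open squares P. schneideri (9 libraries). At Pyun19G005430 only the member and the gene before it are at 0 in P. schneideri.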

How the data were processed

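Leaf RNA of P. qamdoensis and P. schneideri, in 9 libraries each, was sequenced on the Illumina platform. The authors filtered the reads, used P. yunnanensis as the reference genome and deposited 1 table of FPKM values. HISAT2 and StringTie are named in the submitters' processing notes, with no versions. Fragment counts were not used here. FPKM was used as deposited, and all 18 columns were matched to samples by label. The number of fragments behind single values is unknown, so no counting error is given.

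Members and lists were chosen with earlier results of these data known. Films were compared in P. qamdoensis with limma 3.58.1 (R 4.3.3) on log2(FPKM + 1) for genes averaging 0.5 FPKM or more over the libraries, with 1 mean per film, eBayes with trend and Benjamini-Hochberg adjustment over all genes tested. Fold changes are on the scale of FPKM + 1, which understates those of low genes. The calling thresholds (fold 1.5, adjusted p below 0.01) follow the study's methods, and its test is not named. The columns held no fold changes or p-values of the authors. Positions are gene order numbers in the identifiers. No genome was used, so no sequence is shown.

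Named genes are the 10 highest and 3 lowest members, the 3 largest positive and negative film differences per contrast without BF replicate 1, members in the study's supplementary tables, those with the highest ratio of BF replicate 1 to the other libraries (30 tied at 0 for the lowest), and genes nearest the limits. Further genes named were chosen after their values were seen. Alternatives were other limits of the rule, pseudocounts, filters, scalings, weights, thresholds, a replicate block, the library GC class and each library left out. Python 3.11.15, numpy 2.4.6, pandas 2.3.3 and matplotlib 3.10.9 were used for the other steps.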

Additional observations from a re-analysis of the deposited data

Results flagged for a closer look

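The number of genes below 0.1 FPKM in a P. qamdoensis library but at 1 or more in the other 8 was 313 in BF replicate 1, far from the 0 to 3 of the others. Of these 313 genes, 184 were at 1 FPKM or more in all 9 P. schneideri libraries and 33 are members. Among the 24 named members, 15 had a library standing apart among the 9 of P. qamdoensis, the gap to the next library being a large part of the whole range, and in 11 of the 15 it was BF replicate 1. Chance gives such a flag in about 1 of 20 groups. That rate cannot be applied to these members, because the rule let only BF replicate 1 fall below 1 FPKM. Several genes were also named for their extreme values, some of them in that library.

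BF replicate 1 stood below the rest for Populus_yunnanensis_newGene_1079 (4.08 FPKM), Populus_yunnanensis_newGene_1704 (0.745 FPKM), and for Populus_yunnanensis_newGene_1627, Populus_yunnanensis_newGene_1728, Populus_yunnanensis_newGene_2409, Populus_yunnanensis_newGene_343 and Pyun14G002660, which were at 0. It stood above the rest for Pyun07G005320 (77.6 FPKM), Pyun09G015040 (29.8 FPKM), Pyun03G004130 (14.1 FPKM) and Pyun15G009710 (5.20 FPKM). Both groups hold members of high and of low level.

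In other libraries, BF replicate 3 stood above the rest for Populus_yunnanensis_newGene_1597 (6.95 FPKM) and Pyun04G009930 (21.4 FPKM), and, among the 8 libraries without BF replicate 1, for Pyun04G004500 (23.1 FPKM). BF replicate 2 stood above the rest for Pyun13G009350 (79.4 FPKM) and WF replicate 2 for Pyun06G024700 (14.9 FPKM). For Populus_yunnanensis_newGene_1597, Pyun04G009930 and Pyun06G024700 this also held among the 8 libraries.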

How the results depend on the processing

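The number of genes depended on the limits of the rule. It was 90 with a minimum of 0.5 FPKM, 14 with a minimum of 5, 126 with a ceiling of 0.5, 20 when BF replicate 1 was also held to the minimum and 109 from the WF libraries alone. It ran from 59 to 67 with each library left out. No member was called with each library left out in turn, in any contrast or in the F test. Over all genes, leaving out BF replicate 2 gave 180 calls of 24169 in BF vs WF, 186 in BF vs GF and 128 in the F test. Leaving out any other library gave at most 2 calls over all genes. At an unadjusted p below 0.01, BF vs WF had 3 calls among members (3.18% of all genes tested) while BF vs GF had 4 (3.96%). In alternatives chosen after seeing the data, without BF replicate 1, the unadjusted threshold called 3 members in BF vs WF (2.81% of all genes), 2 in GF vs WF (0.621%) and 4 in BF vs GF (3.52%). An adjusted p below 0.05 called Pyun14G007110 alone in the contrasts with BF, 1 member each (BF vs WF called 0.05% of all genes, BF vs GF 0.263%), and the GC class term or a pseudocount of 0.1 called it as the only 1 in BF vs GF (log2 fold change 2.86 and 3.06; 0.0125% and 0.00417% of all genes). The F test then had 1 call at an adjusted p below 0.05 (0.0834%) and 1 with the pseudocount (0.0125%). With each library left out, the members' median log2 fold change ran from -0.83 to -0.01 in BF vs WF, 0.02 to 0.13 in GF vs WF and -0.84 to -0.04 in BF vs GF, and the GC class term with 9 libraries gave -0.16 in GF vs WF. A pseudocount of 0.1 gave -1.27 in both contrasts with BF, and library weights gave -0.19 for BF vs WF and -0.25 for BF vs GF. A filter at a mean of 5 FPKM over the 9 libraries kept only 24 of the 59 members. The median of these 24 was -0.37 in BF vs WF, -0.03 in GF vs WF and -0.28 in BF vs GF. The GC class term, with all 59 members, also gave -0.28 in BF vs GF. Values changed sign for Populus_yunnanensis_newGene_1597 in BF vs WF, which ran from -0.51 (without BF replicate 3) to 0.99 (without BF replicate 1) with each library left out and was -0.51 with a pseudocount of 0.1, for Populus_yunnanensis_newGene_3412 in GF vs WF, at -0.10 with the GC class term, and for Pyun03G004130 in BF vs GF, which ran from -0.59 without BF replicate 1 to 0.12 without BF replicate 3 and was 0.03 without BF replicate 2. The causes were not tested. The median ratio of BF replicate 1 to the other libraries, 0 over all members, was 0.303 over the 25 with a mean of at least 5 FPKM.

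Replicate numbers did not pair the libraries: correlations of same-numbered libraries ran from -0.48 to 0.23. With the replicate block, members called stayed at 0 in every contrast and in the F test, as did calls over all genes.

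The study's methods give an approximate raw yield per library, but mapped depth was not used here. A value of 0 in P. schneideri therefore does not exclude low expression there. Species, plant origin and fit to the P. yunnanensis genome cannot be told apart here. Without BF replicate 1, film BF has 2 plants.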
